A study of Homo sapiens with 12 samples.

Results

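The 8 genes described here encode WNK kinases, the kinases they act through and the cation-chloride cotransporters at the end of that chain. They are WNK1, WNK4, STK39 (SPAK), OXSR1 (OSR1), SGK1, SLC12A2 (NKCC1), SLC12A4 (KCC1) and SLC12A7 (KCC4). They were taken by gene symbol from the 60664 genes of the count table, and all 8 passed the filter on low counts that 17544 genes passed. The set was chosen with earlier results of these libraries known, in which WNK4 was among the large rises at pH 6.4 against pH 7.4. The members' levels and differences are therefore given as a description, with no test.

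Poly(A) RNA was sequenced from MDA-MB-231, an established human triple-negative breast cancer cell line of mesenchymal character, labelled wild type. All groups were grown to near confluence at pH 7.4 in high-glucose DMEM with serum, and the medium was then set for 24 h to pH 7.4, to pH 6.9 or to pH 6.4. Each medium has 4 libraries. The middle value is a label, since the protocol states pH 6.7 for that medium; the label is kept here. The series' title asks how acidity and hypoxia bear on cancer cell spread, and the comparisons below cover acidity only. The repeats are not stated to be separate cultures, so p-values measure only the spread between these samples. Total counts per library were 21060767 to 50643233. Mesenchymal markers were high, with VIM at 2394 CPM (read counts scaled to a common library total) at pH 6.4 and 1633 CPM at pH 7.4. ESR1 and PGR were near 0, whereas ERBB2, listed as a low marker of this line, stood at 74.4 and 87.6 CPM in the same media. Of markers of other cells, PTPRC was 0.16 and 0.343 CPM, CDH1 0.52 and 1.77 CPM, PECAM1 7.88 and 7.83 CPM, and EPCAM 17.5 and 22.0 CPM at pH 6.4 and pH 7.4. Their part in the results was not tested.

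WNK kinases are serine-threonine kinases that respond to intracellular chloride and to osmotic stress. They phosphorylate SPAK and OSR1, which in turn phosphorylate the SLC12 cotransporters. That step activates NKCC1, which brings sodium, potassium and chloride into the cell, and inhibits the KCCs, which let potassium and chloride out. The pathway thereby sets cell volume and chloride content. SGK1, a kinase induced by corticosteroids and by osmotic stress, phosphorylates the ubiquitin ligase NEDD4L and also acts on WNK4. The regulation known best is by phosphorylation, which counts of messenger RNA do not measure.

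The promoters of the influx and efflux cotransporters whose messenger RNAs went in opposite directions are shown as the 250 bases before the RefSeq start (GRCh38.p14). RefSeq promoters were matched for 7 of the 8 genes. SLC12A2 lies at chr5:128083516-128083765 on the plus strand and SLC12A7 at chr5:1112064-1112313 on the minus strand, each printed 5′ to 3′ along its gene. Capitals mark matches, on either strand, to CACGTG (an E-box) or GGGCGG (a GC box).
SLC12A2: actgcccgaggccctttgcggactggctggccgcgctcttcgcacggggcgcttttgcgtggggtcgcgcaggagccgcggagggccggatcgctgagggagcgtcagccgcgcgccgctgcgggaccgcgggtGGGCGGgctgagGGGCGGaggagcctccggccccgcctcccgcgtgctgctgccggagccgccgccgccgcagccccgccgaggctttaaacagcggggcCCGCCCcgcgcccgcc
SLC12A7: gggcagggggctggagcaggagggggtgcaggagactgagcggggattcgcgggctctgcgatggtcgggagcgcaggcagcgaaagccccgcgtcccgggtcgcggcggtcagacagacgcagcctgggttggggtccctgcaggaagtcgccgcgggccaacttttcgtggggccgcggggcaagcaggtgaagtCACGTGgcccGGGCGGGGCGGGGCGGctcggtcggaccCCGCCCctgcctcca
TGACGTCA, the cAMP response element, and TGGAAA, the core bound by NFAT factors, were searched as well and had no match in either window. The SLC12A2 window held 3 GC boxes and no E-box, at 79.6% G and C. The SLC12A7 window held 4 GC boxes, 3 of them overlapping neighbours in 1 run, and 1 E-box starting 53 bases before the start, at 74.4% G and C. Among the 35116 promoters of the same table, a GC box occurred in 42.6% of windows, an E-box in 6.34%, a cAMP response element in 1.65% and the NFAT core in 18.0%. The motifs were chosen after the sequences were seen, and a match is a description of letters only.

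Between pH 6.4 and pH 7.4, WNK4, STK39, OXSR1 and SLC12A7 were higher at pH 6.4 and SLC12A2 was lower, without overlap of the libraries for any of these 5 genes. WNK1, SGK1 and SLC12A4 overlapped between the media. How often other genes separate in this way was not counted, so nothing particular to the members is read from it. In the test over all genes (edgeR's quasi-likelihood test, Benjamini-Hochberg adjusted p under 0.05), 4 of the 8 members were called higher and 1 lower. Of all genes tested, 15.6% were called higher and 14.7% lower, and with total counts in place of TMM scaling the higher share of the calls was 40.4%, against 51.4%. Since this contrast was among those with which the members were chosen, nothing is read from their count. The members' median log2 fold change was 0.35, against -0.001 for all genes tested. In bulk RNA, a difference in the number of cells with a transcript cannot be told apart from a difference in RNA per cell.

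WNK4 had the largest difference among the members (ENSG00000126562; GRCh38, GENCODE release 29, chr17:42780678-42796936, plus strand). Its CPM values, scaled with TMM factors, were 1.19, 0.434, 1.21 and 1.45 at pH 7.4. At pH 6.9 they were 1.87, 1.63, 1.62 and 2.34, and at pH 6.4 they were 8.32, 19.2, 4.97 and 19.9. Every library at pH 6.4 stood above every other library, and every library at pH 6.9 stood above every library at pH 7.4. Behind these values lie 211 to 891 reads per library at pH 6.4, 45 to 94 at pH 6.9 and 21 to 65 at pH 7.4. WNK4 averaged 13.1 ± 7.59 CPM at pH 6.4 and 1.07 ± 0.441 CPM at pH 7.4 (SD, n = 4 each), a fitted 12.4-fold difference (log2 fold change 3.63, SE 0.446). For pH 6.9 against pH 7.4 the log2 fold change was 0.82 (SE 0.44), and for pH 6.4 against pH 6.9 it was 2.81 (SE 0.42). Within pH 6.4, replicates 2 and 4 stood at about 4 times the level of replicate 3. The same replicates 2 and 4 had the lowest TMM factors of all libraries, 0.916 and 0.939, and the part of that in the WNK4 level was not tested. When single libraries were left out in turn, the log2 fold change of pH 6.4 against pH 7.4 lay between 3.34 and 3.90.

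WNK1, the widely expressed member of the family (ENSG00000060237, chr12:752593-911452, plus strand), had more reads than WNK4 in every library, and its groups overlapped. Its levels were 200 to 250.3 CPM at pH 7.4, 205 to 253 CPM at pH 6.9 and 223 to 287 CPM at pH 6.4. The log2 fold change was 0.14 (SE 0.103) for pH 6.4 against pH 7.4. The ratio of WNK4 to WNK1 reads within a library was 0.0223 to 0.0725 at pH 6.4 and 0.00217 to 0.00579 at pH 7.4. WNK3, a further paralog that is not a member, stood at 9.97, 12.1, 8.46 and 9.11 CPM at pH 6.4, against 10.3, 10.54, 9.73 and 11.6 CPM at pH 7.4. Its groups overlapped, and it was not called (log2 fold change -0.09, edgeR adjusted p = 0.692).

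STK39, which encodes SPAK (ENSG00000198648, chr2:167954020-168248141, minus strand), stood at 42.7, 48.0, 43.3 and 45.8 CPM at pH 7.4. At pH 6.9 it stood at 48.7, 64.3, 46.6 and 49.6 CPM, and at pH 6.4 at 68.6, 110.7, 53.75 and 87.9 CPM. All libraries at pH 6.4 were above all at pH 7.4, while replicate 2 at pH 6.9 lay within the range of pH 6.4. STK39 averaged 80.25 ± 24.7 CPM at pH 6.4 and 45.0 ± 2.42 CPM at pH 7.4 (SD, n = 4 each), a log2 fold change of 0.84 (SE 0.175). The other kinase of this step, OXSR1 (ENSG00000172939, chr3:38165089-38255488, plus strand), stood at 179.9, 197 and, in replicates 3 and 4, 181 and 179 CPM at pH 7.4. Its values were 208, 231, 183 and 190.3 CPM at pH 6.9, and 254, 314, 198 and 287 CPM at pH 6.4. At 198 CPM, replicate 3 at pH 6.4 was just above the highest pH 7.4 library. The log2 fold change of OXSR1 was 0.51 (SE 0.12) for pH 6.4 against pH 7.4 and 0.14 for pH 6.9 against pH 7.4. The ratio of STK39 to OXSR1 reads was 0.3 ± 0.039 at pH 6.4 and 0.244 ± 0.00833 at pH 7.4 (SD, n = 4 each), with no overlap. For WNK4, STK39 and OXSR1 alike, replicate 3 was the lowest and replicates 2 and 4 the highest libraries at pH 6.4.

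SGK1 (ENSG00000118515, chr6:134169246-134318112, minus strand) showed no such separation of the media. It stood at 44.3 to 62.2 CPM at pH 7.4, 31.7 to 51.3 CPM at pH 6.9 and 30.4 to 75.2 CPM at pH 6.4. The media overlapped in every pair, and the spread within pH 6.4 was wider than any difference between means. The log2 fold change was -0.08 (SE 0.23) for pH 6.4 against pH 7.4, and without single libraries it lay between -0.35 and 0.10. In all 3 media, replicates 1 and 2 were higher than replicates 3 and 4. Within replicates 1 and 2 the log2 fold change of pH 6.4 against pH 7.4 was 0.12, and within replicates 3 and 4 it was -0.36.

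**Figure D1:**
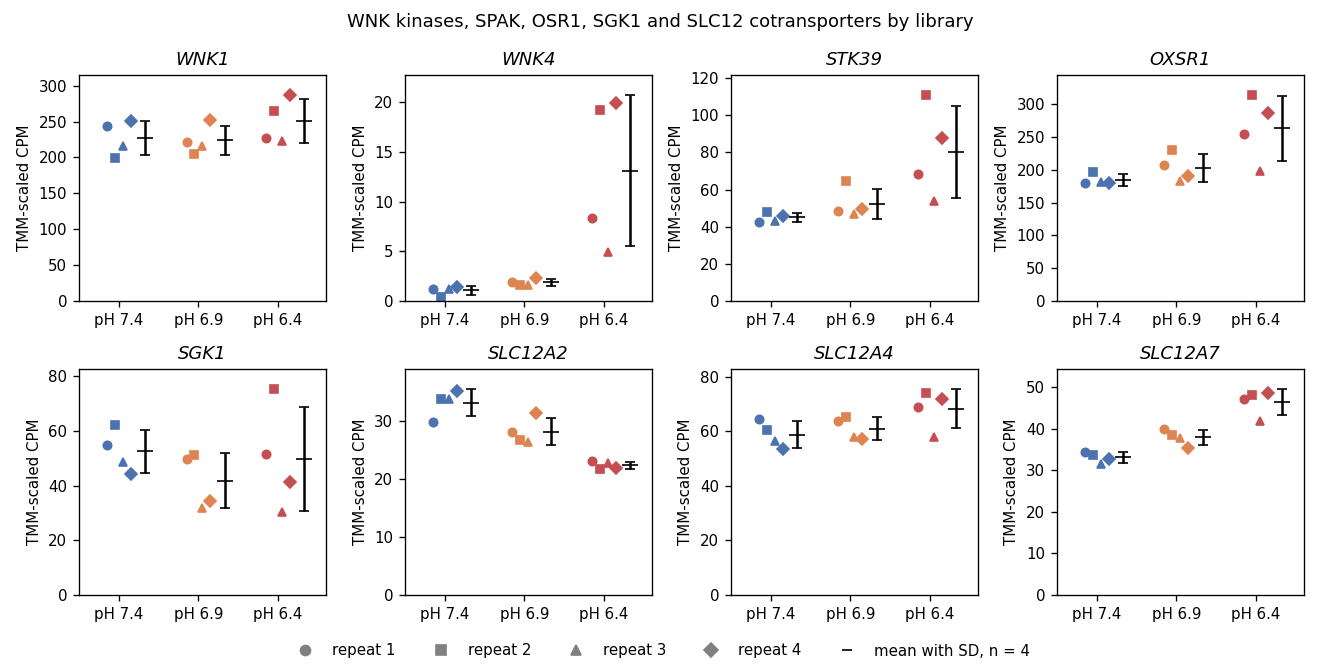
Level of each of the 8 genes in all 12 libraries as TMM-scaled CPM on linear axes that start at 0, by medium (pH 7.4, pH 6.9, pH 6.4), with the mean and SD (n = 4) beside the points. WNK4 libraries at pH 6.4 lie between 4.97 and 19.9 CPM, above all others, while SLC12A2 narrows to 21.8 to 23.0 CPM at pH 6.4.

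SLC12A2 encodes NKCC1, the influx cotransporter, and was the 1 member whose libraries at pH 6.4 lay below all those at pH 7.4 (ENSG00000064651, chr5:128083766-128189688, plus strand). Its values were 29.8, 33.7, 33.7 and 35.2 CPM at pH 7.4, and 28.05, 26.7, 26.4 and 31.4 CPM at pH 6.9. At pH 6.4 they were 23.0, 21.8, 22.7 and 21.9 CPM, below every library of the other media. SLC12A2 averaged 22.4 ± 0.634 CPM at pH 6.4 and 33.1 ± 2.32 CPM at pH 7.4 (SD, n = 4 each), a log2 fold change of -0.57 (SE 0.091). Libraries at pH 6.9 overlapped those at pH 7.4, with a log2 fold change of -0.23. At pH 6.4 this gene had the smallest SD of the 8.

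SLC12A7 encodes KCC4, an efflux cotransporter (ENSG00000113504, chr5:1050376-1112035, minus strand), and was higher in each more acid medium, with no overlap of libraries in any pair of media. Its values were 34.5, 33.8, 31.5 and 32.7 CPM at pH 7.4. At pH 6.9 they were 39.9, 38.6, 37.8 and 35.4 CPM, and at pH 6.4 they were 47.2, 48.1, 42.0 and 48.6 CPM. The log2 fold change was 0.49 (SE 0.081) for pH 6.4 against pH 7.4 and 0.20 for pH 6.9 against pH 7.4. SLC12A4, which encodes the widely expressed KCC1 (ENSG00000124067, chr16:67943474-67969601, minus strand), moved less, with 53.5 to 64.7 CPM at pH 7.4, 57.25 to 65.3 CPM at pH 6.9 and 58.0 to 74.0 CPM at pH 6.4. Its libraries overlapped between all media, and its log2 fold change was 0.22 (SE 0.094) for pH 6.4 against pH 7.4. With the replicate number as a block, SLC12A4 was called higher as well, which made 6 members called in that contrast. The block also raised the calls over all genes, from 2737 higher and 2584 lower to 3751 and 3539, so nothing is read from this count. SLC12A4 shares 336 exonic bases with LCAT on the same strand, so reads there cannot be given to either gene with certainty.

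The influx transporter was also set against the efflux transporters within each library. The ratio of SLC12A2 reads to the sum of SLC12A4 and SLC12A7 reads was 0.301, 0.358, 0.384 and 0.409 at pH 7.4. It was 0.271, 0.257, 0.277 and 0.339 at pH 6.9, and 0.198, 0.178, 0.227 and 0.181 at pH 6.4. All libraries at pH 6.4 lay below all others, and pH 6.9 overlapped pH 7.4. The ratio of SLC12A7 to SLC12A4 reads was 0.683 ± 0.0309 at pH 6.4 and 0.565 ± 0.0324 at pH 7.4 (SD, n = 4 each), again without overlap. These ratios do not depend on library scaling, but they are ratios of reads from genes of unequal length and not of molecules.

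**Figure D2:**
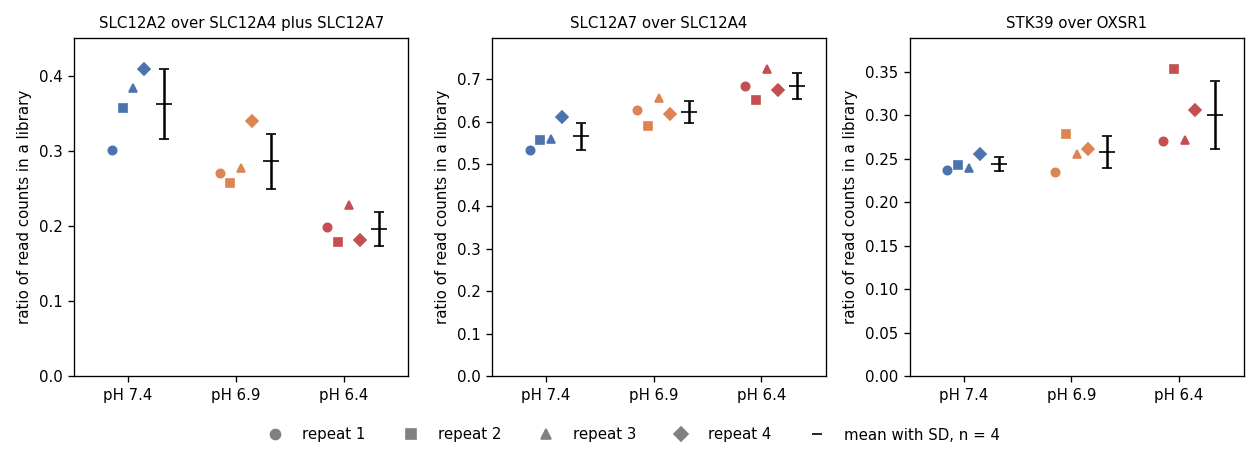
Ratios of read counts within each library on linear axes from 0, by medium, with mean and SD (n = 4). The left panel falls to between 0.178 and 0.227 at pH 6.4, against 0.301 to 0.409 at pH 7.4, and the other panels show SLC12A7 over SLC12A4 and STK39 over OXSR1.

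Comparing the intermediate medium with pH 7.4, none of the 8 members was called by edgeR's quasi-likelihood test, and DESeq2 called 0 as well. An unadjusted p under 0.05 was found for 2 of the 8 members, and for 2092 of all 17544 genes tested. Of all genes tested, 0.313% were called higher and 0.41% lower. WNK4, STK39, OXSR1, SLC12A4 and SLC12A7 had log2 fold changes above 0 and WNK1, SGK1 and SLC12A2 below 0, with a median of 0.10 against 0.009 for all genes tested. Between pH 6.4 and pH 6.9, 4 members were called higher at pH 6.4 (WNK4, STK39, OXSR1 and SLC12A7) and 1 lower (SLC12A2), where 8.83% of all genes tested were called higher and 8.2% lower. With total counts the higher share of the calls was 38.2%, against 51.9%. The number of members called fell to 1 without pH 6.4 replicate 2, pH 6.4 replicate 4 or pH 6.9 replicate 4. It fell to 2 without pH 6.9 replicate 1 or 3, and to 3 without pH 6.4 replicate 1. Calls over all genes fell in these fits as well, from 1550 higher and 1438 lower to 659 to 1150 higher and 512 to 973 lower. All 3 contrasts were treated as known when the members were chosen, so nothing is read from the members' counts in these contrasts either. The 3 contrasts share libraries, so their differences are given side by side and not as separate evidence.

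**Figure D3:**
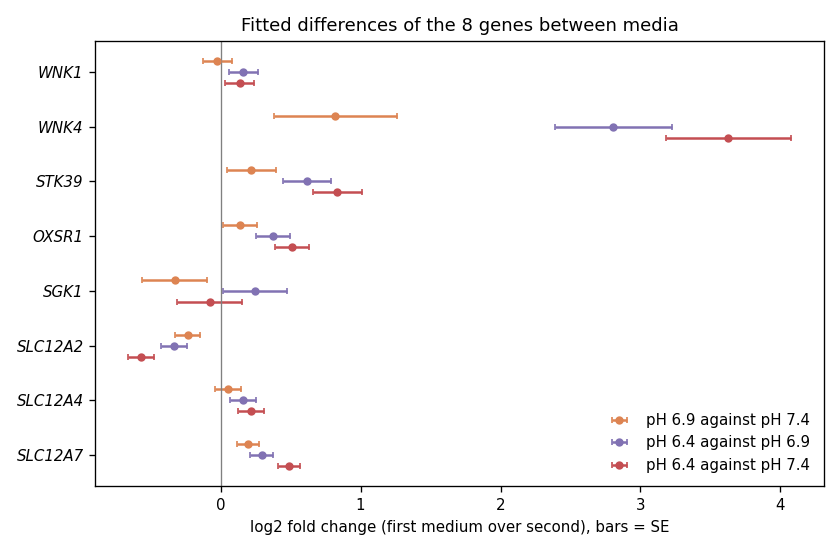
Log2 fold changes of the 8 genes from the fit over all genes, the first medium over the second, with SE bars. For pH 6.4 against pH 7.4 WNK4 stands at 3.63, STK39, OXSR1 and SLC12A7 lie between 0.49 and 0.84, SLC12A2 at -0.57, and WNK1, SGK1 and SLC12A4 between -0.08 and 0.22.

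Levels of different genes can be compared only per length, here as CPM per kilobase of exons. The length is the union of all annotated exons of a gene, 9992 bases for SGK1. Which transcripts were present was not determined, so the order is uncertain to that extent. OXSR1 was highest in all media, at 43.3 ± 8.22 at pH 6.4 and 30.4 ± 1.43 at pH 7.4 (CPM per kilobase, SD, n = 4 each). At pH 7.4 the order continued with WNK1 at 15.8, STK39 at 10.6, SLC12A4 at 7.08, SLC12A7 at 5.54, SGK1 at 5.26, SLC12A2 at 3.11 and WNK4 at 0.21 CPM per kilobase. SLC12A7 and SGK1 were the only neighbours in that order whose libraries overlapped. At pH 6.9 the order was the same, and there WNK1 and STK39 overlapped. At pH 6.4 STK39 came before WNK1, at 18.9 and 17.4 CPM per kilobase, and WNK4 before SLC12A2, at 2.57 and 2.10 CPM per kilobase. Libraries overlapped for both of these pairs at pH 6.4, and also between SLC12A4, SLC12A7, SGK1 and WNK4 as neighbours. SLC12A2, last in the order at pH 6.4, held the second-lowest place at pH 7.4.

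WNK4 and COA3, a cytochrome c oxidase assembly factor, lie on opposite strands and overlap by 1790 bases, 816 of them exonic in both. No source used here states whether the counting used strand, so reads of the shared bases may stand under either gene. COA3 did not follow WNK4. It averaged 29.5 ± 4.93 CPM at pH 6.4 and 43.2 ± 4.98 CPM at pH 7.4 (SD, n = 4 each), and it fell at pH 6.4 (log2 fold change -0.55, edgeR adjusted p = 0.00746). The ratio of WNK4 to COA3 reads was 0.231, 0.697, 0.165 and 0.818 at pH 6.4, against 0.0264, 0.00878, 0.0308 and 0.037 at pH 7.4.

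Other genes of this stretch of chromosome 17, chosen after their values were seen, were compared in the same fit for pH 6.4 against pH 7.4. VPS25, a subunit of an endosomal sorting complex, ends 1078 bases before WNK4 on the same strand and rose by a log2 fold change of 0.28 (edgeR adjusted p = 0.0081). EZH1, a histone methyltransferase, rose by 0.48 (adjusted p = 0.0135), and BECN1, an autophagy factor, by 0.29 (adjusted p = 0.0295). PSME3, a proteasome activator, fell, at -0.34 (adjusted p = 0.00521). The amine oxidase genes AOC2 and AOC3 rose by 1.85 (adjusted p = 0.00137) and 3.03 (adjusted p = 0.00113), and they are paralogs between which reads may be split. AOC3 begins 54247 bases beyond the end of WNK4. Its levels were 4.14, 12.2, 1.39 and 7.64 CPM at pH 6.4, against 0.29, 0.682, 1.12 and 1.05 CPM at pH 7.4. CNTD1, next to COA3, was at or under 0.278 CPM in every library and was not tested. RAMP2, between EZH1 and VPS25, was not tested either. EZH1 lost its call without pH 6.4 replicate 2 (adjusted p = 0.0512). BECN1 lost it without pH 6.4 replicate 1, 2 or 4 or pH 7.4 replicate 1, 3 or 4 (adjusted p 0.0624 to 0.0944), and with total counts (adjusted p = 0.0768). BECN1 shares 300 exonic bases with PSME3 on the other strand.

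**Figure D4:**
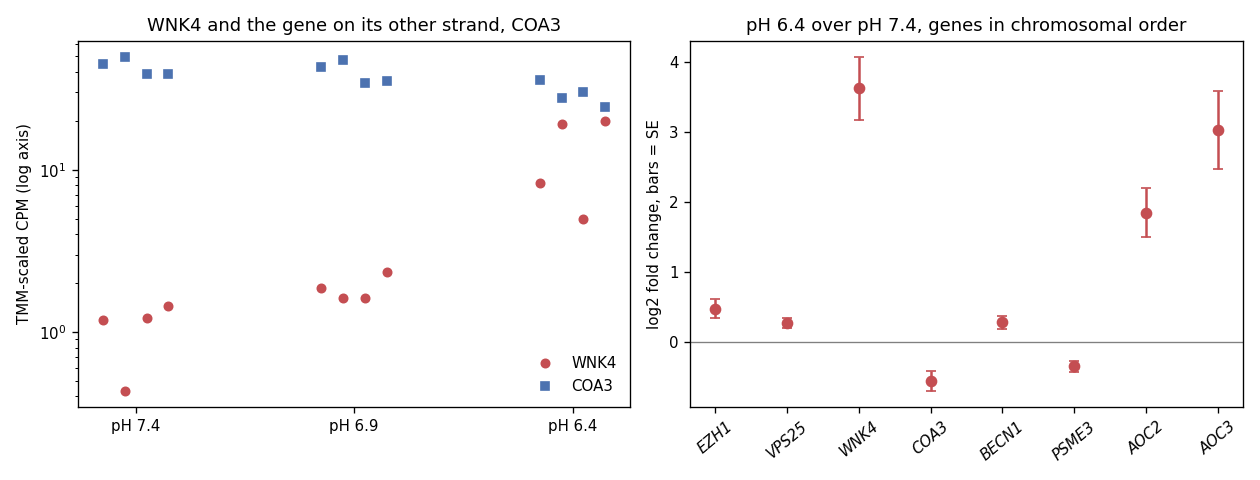
Left, TMM-scaled CPM of WNK4 and COA3 in each library on a log axis, by medium. Right, log2 fold changes of pH 6.4 over pH 7.4 with SE bars for genes around WNK4 in chromosomal order at even spacing, in which WNK4 at 3.63, AOC2 at 1.85 and AOC3 at 3.03 stand above their neighbours.

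A wider list of 35 pathway genes that are not members was compared in the same fit, of which 30 passed the filter on low counts. The list was drawn from textbook knowledge with earlier results of these data known. Its counts and medians are therefore a description and no independent evidence about the pathway. For pH 6.4 against pH 7.4, 9 rose and 6 fell, where 15.6% of all genes tested were called higher and 14.7% lower. Their median log2 fold change was 0.13, against -0.001 for all genes tested. With total counts 6 rose and 6 fell, since CAB39L, NEDD4L and KCNN4 were no longer called. For pH 6.9 against pH 7.4, 1 fell and none rose, where 0.724% of all genes were called in either direction. With the replicate number as a block 1 rose and 3 fell. An unadjusted p under 0.05 was found for 8 of the 30, and for 2092 of all 17544 genes tested. Between pH 6.4 and pH 6.9, 6 rose and 2 fell at pH 6.4, where 8.83% of all genes were called higher and 8.2% lower, and with the replicate number as a block 8 rose and 6 fell. WNK2, SLC12A1, SLC12A3, SCNN1B and SCNN1G were at or near 0 in these media and were not tested. Exons of another gene on the opposite strand overlap those of WNK1, TSC22D1, TSC22D3, NEDD4L, CUL3, RICTOR, MLST8, PDPK1, MTOR, SLC12A5, SLC12A9, SCNN1A and ATP1B1. Those of SGK3 and SLC12A8 share bases with a gene on the same strand, so the counts of all these genes are uncertain to that extent. Without pH 6.4 replicate 2, pH 6.4 replicate 4 or pH 7.4 replicate 4, the count for pH 6.4 against pH 7.4 was 10 in place of 15. Over all genes these fits had 2005 to 2421 higher and 1790 to 2286 lower calls, in place of 2737 and 2584. The count for pH 6.4 against pH 6.9 was 4 without pH 6.4 replicate 2 or 4 and 5 without pH 6.9 replicate 1 or 3, in place of 8. Over all genes those fits had 659 to 848 higher and 512 to 812 lower calls, in place of 1550 and 1438.

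Adaptors and partners of WNK or SPAK had 4 rises and 1 fall among 8 for pH 6.4 against pH 7.4, a contrast in which 30.3% of all genes tested were called. TSC22D1, a TSC22 domain protein of a family that binds WNK kinases, stood at 172, 159, 135 and 131 CPM at pH 7.4. At pH 6.9 it stood at 225, 223, 182 and 175 CPM, and at pH 6.4 at 368, 382, 245 and 311 CPM. No libraries overlapped between media, and TSC22D1 rose by a log2 fold change of 1.13 (edgeR adjusted p = 8.46e-05) at pH 6.4 against pH 7.4. Its relative TSC22D4 fell, averaging 81.3 ± 19.6 CPM at pH 6.4 and 135 ± 32.3 CPM at pH 7.4 (SD, n = 4 each; log2 fold change -0.74, adjusted p = 0.0154). TSC22D2 rose by 0.54 (adjusted p = 0.0206). The scaffold CAB39 (MO25), which holds SPAK and OSR1 in their active form, rose by 0.56 (adjusted p = 0.000512), a gene named after its values were seen. Its paralog CAB39L rose by 0.44 (adjusted p = 0.0339). TSC22D3, at a log2 fold change of 0.25 (adjusted p = 0.395), and NRBP1, at 0.21 (adjusted p = 0.214), were not called. Set against pH 6.9, TSC22D4 at pH 6.4 was called only with the replicate block among the alternatives run (log2 fold change -0.34, adjusted p = 0.00121). NRBP1 was called there with the block (0.32, adjusted p = 0.0194) and with DESeq2 (0.35, adjusted p = 0.0396). It was also called there with no filter (edgeR adjusted p = 0.0451) and with repeats 1 and 2 only (0.0472). The same held without pH 6.4 replicate 3 (0.456, edgeR adjusted p = 0.00148). Without pH 6.4 replicate 3, NRBP1 was called against pH 7.4 as well (0.33, adjusted p = 0.00798). TSC22D4 lost its call of pH 6.4 against pH 7.4 without pH 6.4 replicate 2 or pH 7.4 replicate 4 (adjusted p 0.0507 to 0.0535). TSC22D2 lost it without pH 6.4 replicate 4 or pH 7.4 replicate 1 or 2 (0.0569 to 0.0813). CAB39L lost it without pH 6.4 replicate 1, 2 or 4 or pH 7.4 replicate 2, 3 or 4 (0.0547 to 0.126), and with total counts (0.0634). TSC22D4 shares 391 exonic bases with C7orf61 on the same strand.

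Among parts of ubiquitin ligases, NEDD4L, the ligase that SGK1 phosphorylates, rose by a log2 fold change of 0.33 (edgeR adjusted p = 0.0264) at pH 6.4 against pH 7.4. Its call was lost without pH 6.4 replicate 2 or 4 or pH 7.4 replicate 1 or 2 (adjusted p 0.0541 to 0.1), and with total counts in place of TMM scaling (adjusted p = 0.0669). The other 4 were not called, in a contrast in which 30.3% of all genes tested were called. KLHL3, the adaptor that brings WNK kinases to a cullin ligase, averaged 1.52 ± 0.643 CPM at pH 6.4 and 2.36 ± 1.42 CPM at pH 7.4 (SD, n = 4 each; adjusted p = 0.384). Without pH 7.4 replicate 1 it was called lower (log2 fold change -0.997, adjusted p = 0.0172). CUL3, that cullin, had a log2 fold change of 0.22 (adjusted p = 0.117). With the replicate block CUL3 (adjusted p = 0.0131), KLHL2 (0.22, adjusted p = 0.0233) and RBX1 (-0.20, adjusted p = 0.0134) were called. CUL3 was also called without pH 6.4 replicate 3 (adjusted p = 0.0257), and KLHL2 without pH 7.4 replicate 2 (adjusted p = 0.0258).

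Of the SGK paralogs and upstream kinases, 3 rose and 2 fell among 7 for pH 6.4 against pH 7.4, where 30.3% of all genes tested were called. SGK2 had 80, 83, 70 and 48 reads at pH 6.4 and 1, 28, 9 and 19 reads at pH 7.4, without overlap, and rose by a fitted log2 fold change of 2.25 (edgeR adjusted p = 0.0046). Its level of 1.76 ± 0.145 CPM at pH 6.4 and 0.363 ± 0.234 CPM at pH 7.4 (SD, n = 4 each) was low, and it shares 365 exonic bases with Z98752.3 on the same strand. RICTOR and MAPKAP1 are subunits of the kinase complex mTORC2, which activates SGK kinases. RICTOR averaged 174 ± 31.1 CPM at pH 6.4 and 114.5 ± 6.54 CPM at pH 7.4 (SD, n = 4 each; log2 fold change 0.60, adjusted p = 0.000953), and MAPKAP1 rose by 0.37 (adjusted p = 0.00195). MLST8, a subunit common to both mTOR complexes, fell, at -0.43 (adjusted p = 0.0438), and MTOR itself, at 0.11 (adjusted p = 0.394), was not called. PDPK1, the kinase that phosphorylates the activation loop of SGKs, fell, at -0.21 (adjusted p = 0.0444), and is named after its values were seen. SGK3 was not called (0.46, adjusted p = 0.357), and 1 library set its value. It had 22 reads (0.639 CPM) in pH 7.4 replicate 1, where the other libraries at pH 7.4 had 2.72 to 2.89 CPM, and without that library its log2 fold change was 0.15. With repeats 1 and 2 alone it was 1.00, and with repeats 3 and 4 alone -0.03. MLST8 lost its call without pH 6.4 replicate 1, 2 or 4 or pH 7.4 replicate 1, 3 or 4 (adjusted p 0.0551 to 0.138). PDPK1 lost it without pH 6.4 replicate 1, 3 or 4 or pH 7.4 replicate 2, 3 or 4 (0.0702 to 0.117). RICTOR at pH 6.4 also rose against pH 6.9, by 0.57 (adjusted p = 0.00506). MAPKAP1 (0.21, adjusted p = 0.0119) and PDPK1 (-0.18, adjusted p = 0.0399) were called there with the replicate block. MAPKAP1 was also called with DESeq2 (adjusted p = 0.0251) and without pH 6.4 replicate 3 (edgeR adjusted p = 0.0124). PDPK1 was also called with total counts (edgeR adjusted p = 0.0242). Under the other alternatives neither was called. The corticosteroid receptors NR3C1 and NR3C2 were not called, at log2 fold changes of 0.08 (adjusted p = 0.449) and -0.03 (adjusted p = 0.913).

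Of the other SLC12 transporters, none rose and 1 fell among the 3 tested for pH 6.4 against pH 7.4, a share near the 30.3% of all genes tested that were called. SLC12A9, an orphan member of the family, averaged 23.6 ± 2.09 CPM at pH 6.4 and 36.9 ± 5.76 CPM at pH 7.4 (SD, n = 4 each; log2 fold change -0.65, edgeR adjusted p = 0.000801). SLC12A9 stood at 23.3, 22.6, 26.6 and 21.9 CPM at pH 6.4, against 43.6, 39.7, 31.1 and 33.3 CPM at pH 7.4, without overlap. SLC12A5, which encodes the neuronal KCC2, stood at 0.542 ± 0.212 CPM at pH 6.4 and 0.573 ± 0.368 CPM at pH 7.4 (SD, n = 4 each) and was not called (adjusted p = 0.962). SLC12A8 was not called either (-0.12, adjusted p = 0.649). SLC12A9 also fell at pH 6.4 against pH 6.9 (-0.37, adjusted p = 0.035), a call lost without any 1 library other than pH 6.4 replicate 3 (adjusted p 0.0554 to 0.107).

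The sodium pump keeps the gradients that these cotransporters use. Of the 4 pump and channel genes tested, 1 rose and 2 fell at pH 6.4 against pH 7.4, where 15.6% of all genes tested were called higher and 14.7% lower. The 2 that fell encode beta subunits of the pump. ATP1B1 stood at 582, 606.5, 636 and 598 CPM at pH 7.4. At pH 6.9 it stood at 491, 443, 489.7 and 462.5 CPM, and at pH 6.4 at 377, 337.5, 402 and 333 CPM. No libraries overlapped between media, and ATP1B1 fell for pH 6.4 against pH 7.4 (log2 fold change -0.74, edgeR adjusted p = 3.15e-05). It was also the 1 listed gene called for pH 6.9 against pH 7.4 (-0.36, adjusted p = 0.0483), a call lost without any 1 of the 8 libraries (adjusted p 0.0829 to 0.188). In those fits its log2 fold change was -0.377 to -0.332. Calls over all genes fell there from 55 higher and 72 lower to 12 to 38 and 27 to 44. The call was also lost with total counts (adjusted p = 0.0855) and with no filter (0.0593). It was kept with DESeq2 (adjusted p = 0.000208) and with the replicate block (edgeR adjusted p = 0.00274). ATP1B3 fell at pH 6.4 against pH 7.4 (-0.52, adjusted p = 0.00163), and against pH 6.9 it was not called (-0.19, adjusted p = 0.217) except with the replicate block (adjusted p = 0.0243). KCNN4, a calcium-activated potassium channel, rose by 0.36 (adjusted p = 0.0226) against pH 7.4, a call lost without pH 6.4 replicate 1 or 2 or pH 7.4 replicate 3 or 4 (adjusted p 0.0623 to 0.0726), and with total counts (adjusted p = 0.0639). SCNN1A, a subunit of the epithelial sodium channel, was not called (-0.20, adjusted p = 0.429), but it was without pH 6.4 replicate 3 (-0.42, adjusted p = 0.0338).

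**Figure D5:**
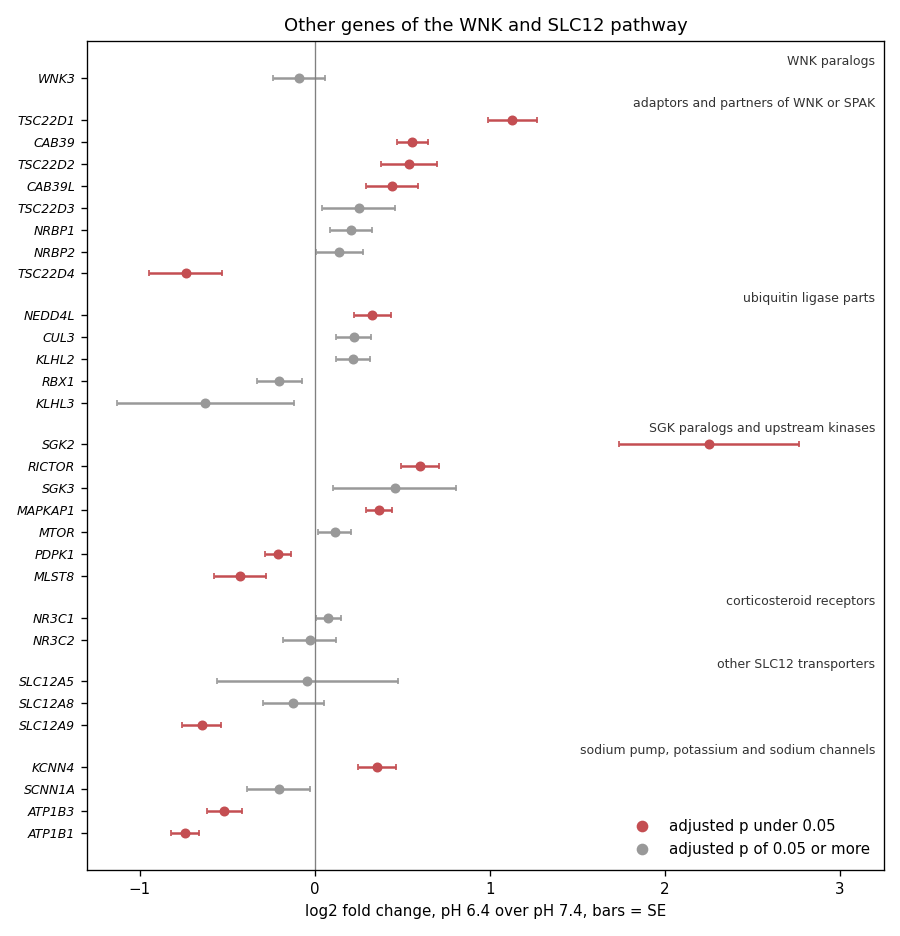
Log2 fold changes of pH 6.4 over pH 7.4 with SE bars for the 30 tested pathway genes that are not members, grouped by role. The 15 genes with an adjusted p under 0.05 are red, from ATP1B1 at -0.74 to SGK2 at 2.25.

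The genes whose log2 CPM followed a member most closely over the 12 libraries were sought among 10864 genes that averaged 5 CPM or more. The libraries share medium and depth with the members, so these values of Pearson's r describe likeness only. SETD5 and TNFRSF10D (both r = 0.982) were closest to WNK4, BUB3 and LIX1L (both 0.986) to STK39, and LIX1L (0.984) to OXSR1. NUCB2 (0.981) and TSC22D1 (0.978) were among the closest to SLC12A7. IGFBP3 was closest to SLC12A2 (0.967), TIMM17A to SGK1 (0.972), PNMA1 to SLC12A4 (0.974) and GIT2 to WNK1 (0.939). NUCB2 averaged 178 CPM at pH 6.4 and 88.5 CPM at pH 7.4, and IGFBP3 averaged 53.4 CPM at pH 6.4 and 90.6 CPM at pH 7.4.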

How the data were processed

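The authors deposited 1 table of raw counts of reads per gene for the 12 libraries. Per the submitters' processing notes, STAR aligned the reads to GRCh38.p13 (hg38) and featureCounts counted them; per the labels' protocols, the poly(A) kit was a stranded one. The sources used here state no versions, annotation or strand setting, so counts of overlapping or antisense genes are uncertain.

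The tools were edgeR 4.0.16 with limma 3.58.1, and DESeq2 1.42.0, in R 4.3.3. After filterByExpr and TMM scaling, the model had 3 media and left 9 residual degrees of freedom (common biological coefficient of variation 0.198). Calls come from edgeR's robust quasi-likelihood test at an adjusted p under 0.05 over all 17544 genes, and CPM uses TMM-scaled totals. The test was checked on simulated counts.

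The members and the pathway list were chosen with earlier results of these data known, the list from textbook knowledge. Some genes of the list, and 1 gene like a member, are not reported here and are left out of its counts. Of the list, the rule was to name up to 4 called genes per role with the largest absolute log2 fold change, with up to 2 uncalled ones. CAB39 and PDPK1 were named beyond that rule after their values were seen. KLHL2 and RBX1, called only under alternatives, were named beyond it as well. The 3 genes most like each member by Pearson r were sought, and some of them are given.

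The alternatives were total-count scaling, DESeq2, no filter, a filter of 1 CPM in 4 libraries, a replicate block, only the groups compared, repeats 1 and 2 or 3 and 4 alone, and leaving out each library or the 2 with the fewest detected genes. The labels do not say that repeat numbers pair libraries. Deviations of same-numbered libraries from their group means correlated at 0.113 to 0.262 (pH 6.4 and pH 7.4) and 0.264 to 0.47 (pH 6.4 and pH 6.9), so block values stand beside results they change. For pH 6.9 and pH 7.4 the values were 0.08 to 0.352, and since the lowest was 0.08 they were not taken as pairs. That range overlaps those of the other contrasts, so the choice rests on the lowest value alone. Coordinates and overlaps are from GENCODE release 29 (GRCh38) and promoters from RefSeq.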

Additional observations from a re-analysis of the deposited data

Results flagged for a closer look

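In 5 of 135 groups of 4 libraries examined, over the members, the 30 tested pathway genes, and COA3 with 6 other tested genes near WNK4, 1 library stood apart from the other 3 beyond the critical value of Dixon's test for 4 values. Chance gives about 1 in 20 such groups. STK39 stood at 64.3 CPM in pH 6.9 replicate 2, where the other 3 libraries had 46.6 to 49.6 CPM. OXSR1 stood at 197 CPM in pH 7.4 replicate 2, where the others had 179 to 181 CPM. CAB39, the scaffold of both kinases, stood at 118 CPM in the same library, where the others had 107 to 108 CPM. PDPK1 was low at 41.5 CPM in pH 7.4 replicate 1, where the others had 43.3 to 43.5 CPM. SGK3 was low in the same library, at 0.639 CPM, where the others had 2.72 to 2.89 CPM. That library, pH 7.4 replicate 1, had the fewest detected genes of all 12, 17841, and the part of this in its values was not tested.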

How the results depend on the processing

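For pH 6.4 against pH 7.4, 5 members and 15 pathway genes were called. With repeats 3 and 4 alone these were 3 and 7, and without single libraries 5 to 6 and 10 to 17. The replicate block gave 6 and 18. Over all genes there were 2737 higher and 2584 lower calls, against 821 and 707 with repeats 3 and 4 and 3751 and 3539 with the block. Between pH 6.4 and pH 6.9, 5 members and 8 pathway genes were called. The members numbered 3 with total counts, 2 with no filter, 3 with only the groups compared, 1 with repeats 1 and 2 and 0 with repeats 3 and 4, and 1 to 5 without single libraries. The pathway genes numbered 14 with the replicate block, 0 with repeats 3 and 4, and 4 to 12 without single libraries. Over all genes, that contrast had 1550 higher and 1438 lower calls, and 0 and 0 with repeats 3 and 4. The block gave 2823 and 2633. Without single libraries there were 659 to 2474 higher and 512 to 2470 lower calls, so the counts of listed genes moved along with those over all genes. For pH 6.9 against pH 7.4, 0 members were called under every alternative run. The 1 pathway gene became 0 with total counts, with no filter, with repeats 1 and 2, with repeats 3 and 4, without the libraries of fewest detected genes and without any single library (0 to 0), and 4 with the replicate block. Those 4 were ATP1B1 (log2 fold change -0.36, edgeR adjusted p = 0.00274), ATP1B3 (-0.33, 0.00633), TSC22D1 (0.43, 0.00522) and TSC22D4 (-0.40, 0.00135). In that contrast same-numbered correlations were 0.08 to 0.352. Of the 12 libraries, 10 correlated best with their own number, a hint from the data and not the design. Over all genes the contrast of pH 6.9 against pH 7.4 gave 55 higher and 72 lower calls, against 275 and 284 with DESeq2 and 519 and 428 with the block. The causes were not tested, except that fits to repeats 1 and 2 or 3 and 4 hold fewer libraries. Of the members' log2 fold changes under alternatives, those of SLC12A2 (-0.65) and SLC12A7 (0.40) for pH 6.4 against pH 7.4 with total counts moved by more than 1 SD. No call changed sign. With total counts 12 of the 15 pathway genes were called for pH 6.4 against pH 7.4. For the 30 tested pathway genes, 53 pairs of a gene and an alternative lost a call of pH 6.4 against pH 7.4, 29 one of pH 6.4 against pH 6.9 and 13 one of pH 6.9 against pH 7.4, while 9, 19 and 3 gained one. At 21 to 65 reads per library, WNK4 at pH 7.4 is the least precisely measured member.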
